A study of Mus musculus with 11 samples.

Results

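The genes described here encode the DNA methyltransferases and their cofactors (Dnmt1, Dnmt3a, Dnmt3b, Dnmt3l and Uhrf1) and the TET dioxygenases (Tet1, Tet2 and Tet3). They were taken by symbol from the authors' expression table, which gave 8 of its 23288 gene symbols, and all 8 had a mean of at least 1 FPKM (fragments scaled to transcript length and to the mapped fragments of each library) in either group. Tet3 passed that minimum through the control group alone, with a mean of 1.05 FPKM there and 0.893 FPKM after knockdown. The study examined CBX6, a chromodomain protein of Polycomb repressive complex 1, in E14Tg2A cells, a line of mouse embryonic stem cells (ESCs) grown without feeders in serum and LIF. RNA-seq was available for 2 libraries of ESCs infected with a lentiviral control shRNA (shCtl) and 2 libraries of ESCs infected with a lentiviral shRNA against Cbx6 (shCbx6), both selected with an antibiotic. Which of the study's Cbx6 shRNAs each library carried is not given in the sources used here. ChIP-seq peak lists were available for 2 replicates of anti-HA in ESCs whose endogenous CBX6 carries a C-terminal HA tag (CBX6-3×HA, made by genome editing and isolated from single sorted cells), 1 for CBX7, another chromodomain subunit, and 1 for RING1B, the catalytic subunit of the complex. The anti-HA sample of parental ESCs and the IgG samples were not analysed here.

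Methylation of cytosine in CpG dinucleotides is copied onto new DNA strands by DNMT1, which UHRF1 brings to hemimethylated sites after replication. DNMT3A and DNMT3B place methylation on unmethylated DNA, and DNMT3L, which has no catalytic activity of its own, stimulates both. The TET enzymes oxidise methylcytosine to hydroxymethylcytosine and further products that can be lost at replication or replaced through base excision repair. ESCs are known to switch between a hypomethylated naive state and a more methylated state, and serum cultures hold cells of both kinds.

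The libraries were summed to 678246 and 693405 FPKM with shCtl and to 734862 and 690452 FPKM with shCbx6, and the number of reads behind them is unknown. The labels do not say that libraries of a group came from separate cultures, so the spread between them may be technical. Cbx6, the target of the shRNA, was read at 17.4 and 14.9 FPKM with shCtl and at 9.53 and 5.40 FPKM with shCbx6. Both shCbx6 libraries thus lay below both shCtl libraries, and their mean was lower by 53.8%. The log2 fold change of Cbx6 was -1.06 (SE 0.263), with an adjusted p of 0.247 by limma and of 0.0296 when shCbx6 replicate 1 was left out. The latter leaves a single shCbx6 library that is assumed to vary as the shCtl libraries do. For Cbx6 the adjusted p by limma ran from 0.0296 to 0.833 over all settings tried. All 8 ESC markers examined, among them Pou5f1 and Sox2, were expressed, with a sum of 3155 and 3443 FPKM with shCtl against 2546 and 2452 FPKM with shCbx6. The 6 trophectoderm markers summed to 13.5 and 17.9 FPKM with shCtl against 34.5 and 253 FPKM with shCbx6. Of these 6, 2 were under 1 FPKM in every library and 4 were tested. Among those tested, 3 were up and 0 down by 1.5-fold (7.63% and 6.56% of all tested genes). The 7 fibroblast markers summed to 2.29 and 2.32 FPKM with shCtl against 1.70 and 5.39 FPKM with shCbx6, with Lum at 0 in all libraries, and the 6 primitive endoderm markers to 1.48 and 1.35 FPKM against 1.48 and 2.51 FPKM. Under 1 FPKM in every library were 6 of the fibroblast and 5 of the primitive endoderm markers. In all of these lists but that of the ESC markers, the highest sum was that of shCbx6 replicate 2. No marker passed the limma test, and the part of these shifts in the results below was not tested.

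Sequences are printed for the genes the results turn on. Dnmt3b and Tet2 have the largest differences between the groups among the 8 genes, Dnmt3l has no peak in any list, and the region upstream of Tet3 holds peaks of all 4 lists. Each run is 250 bases in mm9, 5′ to 3′ on the strand of the gene, and CpG dinucleotides, the substrate of these enzymes, stand in capitals. The first is the stretch before the first annotated start of Dnmt3b (chr2:153474936-153475185, plus strand), with 21 CpG. The second is the same stretch of Tet2 (chr3:133207355-133207604, minus strand), with 51 CpG. The third lies before the start of Dnmt3l transcript 004, inside the gene (chr10:77517830-77518079, plus strand), with 3 CpG. The last is the middle of the longer of 2 stretches that the peaks of all 4 lists share upstream of Tet3 (chr6:83407040-83407289, minus strand), with 19 CpG.
Dnmt3b: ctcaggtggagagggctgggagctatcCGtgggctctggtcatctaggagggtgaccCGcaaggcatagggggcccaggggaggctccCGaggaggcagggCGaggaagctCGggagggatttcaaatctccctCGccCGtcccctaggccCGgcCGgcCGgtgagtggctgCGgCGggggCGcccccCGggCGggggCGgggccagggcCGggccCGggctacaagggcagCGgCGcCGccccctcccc
Tet2: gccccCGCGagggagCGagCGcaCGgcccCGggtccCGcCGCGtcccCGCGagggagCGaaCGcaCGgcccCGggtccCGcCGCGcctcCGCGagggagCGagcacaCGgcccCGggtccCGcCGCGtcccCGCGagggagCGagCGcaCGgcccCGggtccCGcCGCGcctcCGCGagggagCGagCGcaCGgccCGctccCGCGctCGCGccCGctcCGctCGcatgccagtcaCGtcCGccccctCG
Dnmt3l: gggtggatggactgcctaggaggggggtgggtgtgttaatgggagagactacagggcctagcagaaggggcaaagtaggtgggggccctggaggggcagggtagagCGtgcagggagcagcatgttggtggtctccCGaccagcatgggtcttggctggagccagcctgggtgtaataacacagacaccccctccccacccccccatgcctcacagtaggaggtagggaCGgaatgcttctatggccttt
Tet3 upstream region: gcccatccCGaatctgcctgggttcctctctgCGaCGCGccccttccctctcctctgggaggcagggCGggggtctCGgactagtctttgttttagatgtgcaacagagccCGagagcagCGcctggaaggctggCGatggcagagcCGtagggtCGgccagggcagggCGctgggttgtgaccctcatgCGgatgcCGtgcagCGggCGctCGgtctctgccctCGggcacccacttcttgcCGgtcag

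The motif counted was CG, which reads the same on both strands and overlaps no other motif searched. Over 32851 RefSeq promoters (GRCm38.p6), the 250 bases before a start held a median of 6 CpG, and 92.1% held at least 1. At least as many CpG as at Dnmt3b were held by 16.3% of these promoters, as many as at Tet2 by 0.0670% and as many as at this Dnmt3l start by 71.0%. The Tet2 promoter was thus among the most CpG dense of the genome, while Dnmt3l was below the median promoter. All 8 genes were matched to 15 RefSeq promoters. The 3 promoters of Dnmt3a held 38, 40 and 15 CpG, those of Dnmt1 26, 7 and 2, those of Uhrf1 10 and 30, and those of Dnmt3l 5, 4 and 3. Tet1 had a single promoter with 15 CpG and Tet3 a single one with 17. These counts describe the letters of the genome and not their methylation, which was not analysed here.

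Expression differed between the groups by more than 1.5-fold in mean FPKM for 2 of the 8 genes. Dnmt3b was 4.44-fold higher with shCbx6 and Tet2 was 3.16-fold lower. Neither of them, nor any of the other 6 genes, passed the limma test across all 11592 genes tested at an adjusted p of 0.05, which 0.0949% of the genes passed. At an unadjusted p under 0.05, 1 member was higher (Dnmt3b), against 5.12% of all tested genes, and 1 was lower (Tet2), against 6.55%. Past 1.5-fold were 7.63% of all tested genes upward and 6.56% downward. Both shCbx6 libraries lay above both shCtl libraries for 1 member (Dnmt3b), where 18.9% of tested genes did, and below them for 3 members (Dnmt1, Uhrf1 and Tet2), where 24.4% did. The groups overlapped for the remaining 4 genes. The median log2 fold change of the 8 genes was -0.13, beside -0.01 over all genes tested. With 2 libraries against 2, an exact permutation test of a single gene cannot go below a p of 0.333. In bulk RNA, fewer cells of a type and less RNA per cell cannot be told apart.

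**Figure D1:**
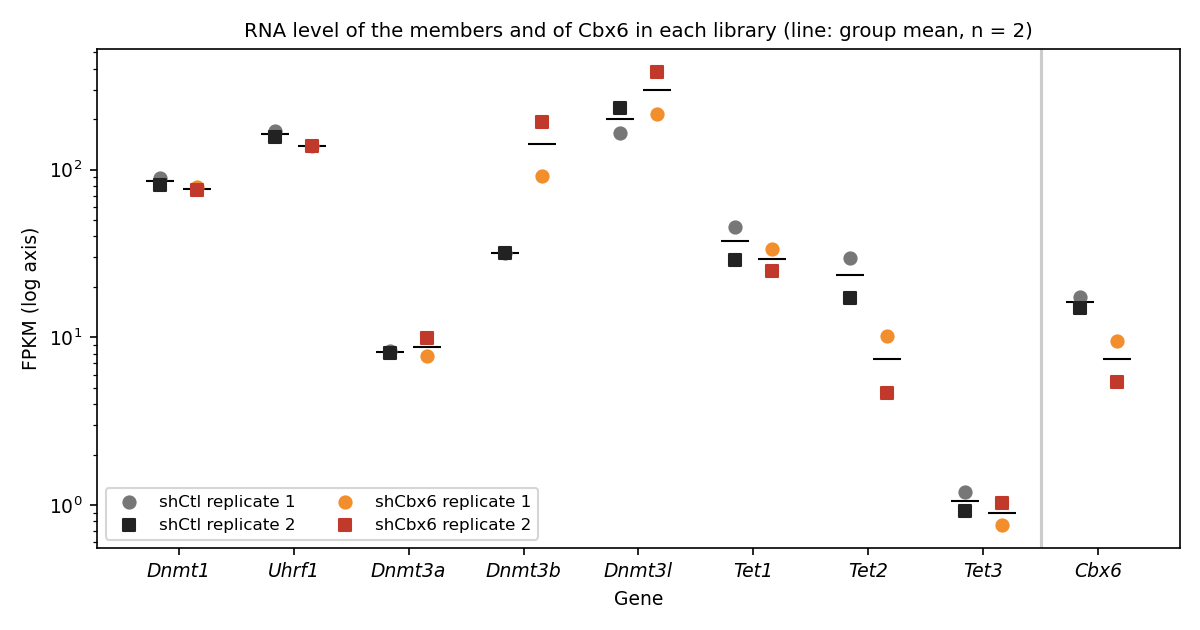
FPKM (log axis) of the 8 genes and of Cbx6 in each of the 4 libraries, with a point per library and a line at each group mean. Dnmt3b lies at 31.8 FPKM in both shCtl libraries and at 90.9 and 192 FPKM with shCbx6, while Tet2 lies lower in both shCbx6 libraries than in both shCtl libraries.

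Among the de novo methyltransferases, Dnmt3b (chr2:153475186-153513466, plus strand) was read at 31.8 FPKM in both shCtl libraries and at 90.9 and 192 FPKM in the shCbx6 libraries. The control libraries were nearly equal, and both knockdown libraries were higher, shCbx6 replicate 2 more so than replicate 1. The means were 31.8 ± 0.0145 and 141 ± 71.1 FPKM (SD, n = 2 each), and the shCbx6 libraries stood at 2.86 and 6.02 times the shCtl mean. The log2 fold change on the scale of log2(FPKM + 1) was 2.02 (SE 0.354), with an unadjusted p of 0.00190 and an adjusted p of 0.147 by limma, and 62 tested genes had a higher value. Without shCbx6 replicate 1 it was 2.55 with an adjusted p of 0.00694 by limma, and leaving out shCbx6 replicate 2 gave 1.49 with an adjusted p of 0.0937 by limma. Over all settings tried, its adjusted p by limma ran from 0.00694 to 0.666. The call for Dnmt3b therefore depended on the setting, while its direction held under each setting tried.

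Dnmt3a (chr12:3806007-3914443, plus strand), the other catalytic de novo enzyme, was read at 8.26 and 8.09 FPKM with shCtl and at 7.76 and 9.84 FPKM with shCbx6. One shCbx6 library was lower and the other higher than the controls, so the groups overlapped. Its log2 fold change was 0.09 (SE 0.159, adjusted p = 0.884 by limma). The sign turned to -0.07 without shCbx6 replicate 2. Dnmt3l (chr10:77504692-77526367, plus strand), the cofactor, was read at 165 and 234 FPKM with shCtl and at 214 and 382 FPKM with shCbx6. It had the highest group mean of the 8 genes in both groups, and shCbx6 replicate 1 lay between the control libraries. Its means of 199 ± 49.1 and 298 ± 119 FPKM (SD, n = 2 each) gave a ratio of 1.496, just under the 1.5-fold limit, with the shCbx6 libraries at 1.08 and 1.92 times the shCtl mean. The log2 fold change was 0.54 (SE 0.333, adjusted p = 0.608 by limma), and it ranged from 0.13 to 0.96 as each library was left out in turn.

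The maintenance genes differed less in size. Dnmt1 (chr9:20711650-20757317, minus strand) was read at 89.3 and 81.4 FPKM with shCtl and at 78.9 and 75.2 FPKM with shCbx6, so that the groups did not overlap. The ratio of its means was 0.903, with a log2 fold change of -0.14 (SE 0.142, adjusted p = 0.763 by limma). As each library was left out in turn, that log2 fold change ran from -0.21 to -0.079. Uhrf1 (chr17:56442744-56462909, plus strand), which recruits DNMT1, was read at 169 and 157 FPKM with shCtl and at 139 FPKM in both shCbx6 libraries. The shCbx6 libraries were the lower ones here too, and the log2 fold change was -0.23 (SE 0.146, adjusted p = 0.616 by limma). Within each library, Uhrf1 stood at 1.90 and 1.92 times Dnmt1 with shCtl and at 1.76 and 1.85 times with shCbx6.

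Among the TET genes, Tet2 (chr3:133126643-133207354, minus strand) was read at 29.8 and 17.2 FPKM with shCtl and at 10.2 and 4.67 FPKM with shCbx6. Both knockdown libraries lay below both control libraries, although the control libraries themselves stood apart. The means were 23.5 ± 8.90 and 7.45 ± 3.93 FPKM (SD, n = 2 each), a difference of -68.3%, and 51 tested genes had a lower log2 fold change. That log2 fold change was -1.57 (SE 0.402), with an unadjusted p of 0.0101 and an adjusted p of 0.255 by limma. Leaving out shCbx6 replicate 1 gave -2.06 and an adjusted p of 0.0459 by limma, and the weakest value with any library left out was -1.08. Over all settings tried, the adjusted p of Tet2 by limma ran from 0.0142 to 0.833. The ratio to the shCtl mean was 0.435 in shCbx6 replicate 1 and 0.199 in replicate 2.

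Tet1 (chr10:62267318-62361866, minus strand), the most abundant TET transcript in these cells, was read at 45.7 and 29.1 FPKM with shCtl and at 33.7 and 25.0 FPKM with shCbx6. The groups overlapped, and the log2 fold change was -0.32 (SE 0.266, adjusted p = 0.709 by limma). It was -0.0035 without shCtl replicate 1 and -0.64 without shCtl replicate 2. Tet3 (chr6:83312367-83391672, minus strand), which is best known from the oocyte and zygote, was close to the 1 FPKM limit at 1.19 and 0.917 FPKM with shCtl and 0.759 and 1.03 FPKM with shCbx6. Its groups overlapped as well, with a log2 fold change of -0.12 (SE 0.201, adjusted p = 0.875 by limma). That value ran from -0.22 to -0.015 over the libraries left out where Tet3 was still tested.

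**Figure D2:**
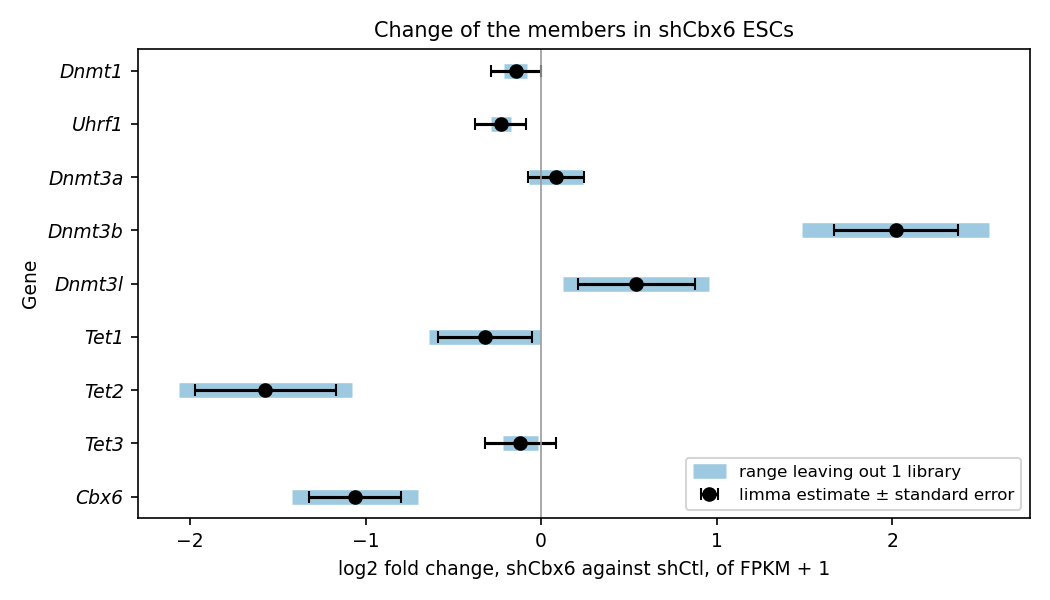
Log2 fold change of each gene, shCbx6 over shCtl, on the log2(FPKM + 1) scale, with the standard error from limma. Dnmt3b at 2.02 and Tet2 at -1.57 lie farthest from 0, and the other 6 genes lie between -0.32 and 0.54.

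FPKM are scaled to transcript length, so levels can be set beside each other between genes. In shCtl the order of the group means was Dnmt3l (199 FPKM), Uhrf1 (163 FPKM), Dnmt1 (85.3 FPKM), Tet1 (37.4 FPKM), Dnmt3b (31.8 FPKM), Tet2 (23.5 FPKM), Dnmt3a (8.18 FPKM) and Tet3 (1.05 FPKM). The libraries of Dnmt3l and Uhrf1 overlapped in that order, as did those of Tet1 and Dnmt3b, and the other neighbours stood apart. In shCbx6 Dnmt3b was in second place with 141 FPKM, overlapping with Uhrf1 (139 FPKM). Tet2, with 7.45 FPKM, came after Dnmt3a, with 8.80 FPKM, and their libraries overlapped.

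The balance within each enzyme family was computed library by library, which does not depend on how a library was scaled. Of the summed FPKM of Dnmt1, Dnmt3a and Dnmt3b, the share of Dnmt3b was 24.6% and 26.2% with shCtl and 51.2% and 69.2% with shCbx6. The share of Dnmt1 was 69.0% and 67.1% with shCtl and 44.4% and 27.2% with shCbx6, and that of Dnmt3a was 6.39% and 6.67% against 4.37% and 3.56%. Dnmt1 was thus the most abundant of the catalytic enzymes with shCtl and Dnmt3b with shCbx6. Dnmt3b stood at 0.356 and 0.391 times Dnmt1 with shCtl and at 1.15 and 2.55 times with shCbx6. Relative to Dnmt3a it stood at 3.85 and 3.93 times with shCtl and at 11.7 and 19.5 times with shCbx6. The cofactor did not keep the same ratio to both of its partners. Dnmt3l over Dnmt3b was 5.17 and 7.35 with shCtl and 2.36 and 1.99 with shCbx6, whereas Dnmt3l over Dnmt3a was 19.9 and 28.9 with shCtl and 27.6 and 38.8 with shCbx6, with overlapping groups.

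Of the summed FPKM of the TET genes, Tet1 held 59.6% and 61.6% with shCtl and 75.4% and 81.4% with shCbx6. Tet2 held 38.9% and 36.5% with shCtl and 22.9% and 15.2% with shCbx6. Tet1 was thus the leading TET transcript in every library, with a larger share with shCbx6. Its level was not higher there, with means of 37.4 FPKM with shCtl and 29.3 FPKM with shCbx6 and overlapping groups. The ratio of Tet1 to Tet2 was 1.53 and 1.69 with shCtl and 3.29 and 5.34 with shCbx6. In sum, the catalytic methyltransferases came to 129 and 121 FPKM with shCtl and 178 and 277 FPKM with shCbx6. The TET genes came to 76.7 and 47.2 FPKM with shCtl and 44.7 and 30.7 FPKM with shCbx6. Shares and sums over these genes are descriptions and were not tested.

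**Figure D3:**
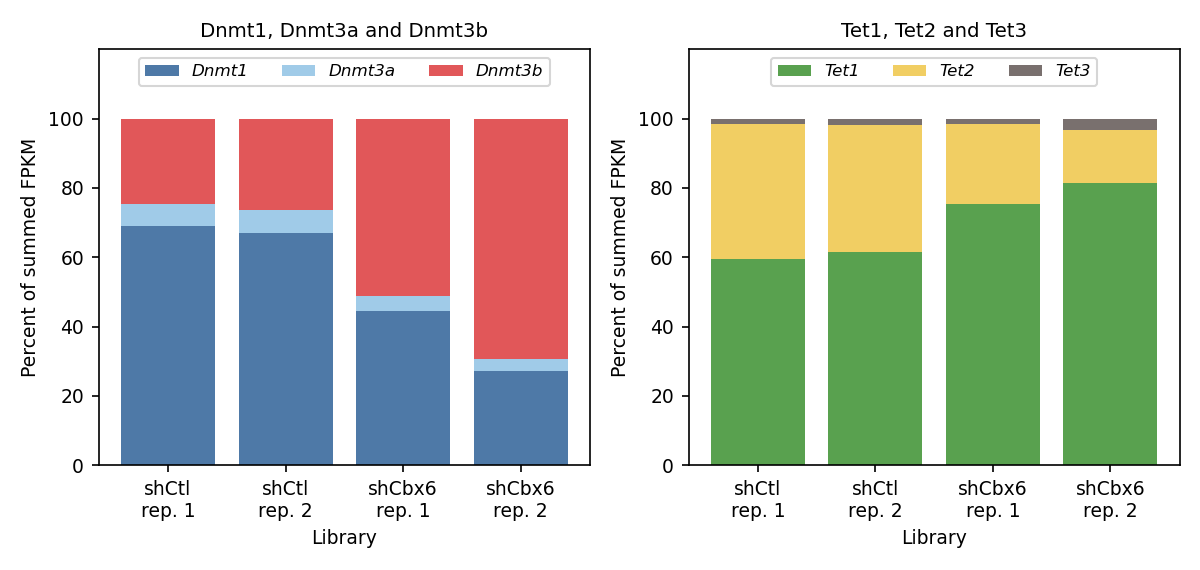
Share (percent) of each gene in the summed FPKM of Dnmt1, Dnmt3a and Dnmt3b and of Tet1, Tet2 and Tet3, one bar per library. Dnmt3b holds 24.6% and 26.2% with shCtl against 51.2% and 69.2% with shCbx6, and Tet2 38.9% and 36.5% against 22.9% and 15.2%.

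The 2 shCbx6 libraries were compared by their distance from the shCtl mean. Of the 7 genes whose shCbx6 libraries lay on the same side of the shCtl mean, shCbx6 replicate 2 was farther from it in 5 (71.4%). The same held for 4781 of 7556 such genes among all tested (63.3%), a share near that of the 7 genes. Cbx6 was itself lower in shCbx6 replicate 2, at 5.40 FPKM, than in replicate 1, at 9.53 FPKM, and the sum of the trophectoderm markers was higher there. The part of either in the larger differences was not tested.

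The gene closest in pattern was sought by Euclidean distance in log2(FPKM + 1) over the 4 libraries. For Dnmt3b it was Lgals1, which encodes a galectin, at a distance of 0.708, with 44.2 and 45.1 FPKM with shCtl and 93.2 and 223 FPKM with shCbx6. For Tet2 it was Ly75, which encodes an endocytic receptor, at 0.579, with 27.4 and 25.4 FPKM with shCtl and 9.02 and 5.05 FPKM with shCbx6. Smaller distances were found, 0.386 for Dnmt3l (Ost4), 0.208 for Uhrf1 (Canx), 0.0678 for Tet3 (Arhgef26), 0.0597 for Dnmt1 (Nxf1) and 0.0242 for Dnmt3a (Col4a3bp). Of the 7 genes given here, Dnmt3b and Tet2 thus stood farthest from their nearest gene.

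Peaks at the genes were then examined, counting a peak that overlapped the span from 2.5 kb upstream of an annotated start to the end of the gene. A peak of CBX6 replicate 1 was found at 7 of the 8 genes, all but Dnmt3l, where 78.9% of the tested genes had one. CBX6 replicate 2 had a peak at 1 gene, Dnmt3b, against 13.0% of tested genes. CBX7 had a peak at 2 genes, Dnmt3a and Dnmt3b, against 12.8%, and RING1B at 1 gene, Dnmt3a, against 10.8%. The share for CBX6 replicate 1 was thus close to that of all tested genes. That list holds 21865 peaks against 5103 for CBX6 replicate 2, 5081 for CBX7 and 4180 for RING1B. Peak scores are those of MACS and are compared only within a list, as the HA and CBX7 samples were prepared by a kit and RING1B by another protocol.

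Dnmt3b was the single gene of the 8 with a peak of both CBX6 replicates in its span, while Tet3 had peaks of both upstream, outside its span. CBX6 replicate 1 had a peak at chr2:153474557-153476398 with a score of 175, above 82.2% of its list. CBX6 replicate 2 had one at chr2:153475078-153476639 with a score of 65.7, above 18.5% of its list. The CBX7 peak at chr2:153474350-153476191 scored 87.3, above 19.0% of its list. Each of the 3 peaks covered 10 of the 12 annotated starts of the gene, and that of CBX6 replicate 1 and that of CBX7 contain the whole Dnmt3b sequence printed above. The replicate 2 and CBX7 peaks were among the weaker ones of their lists and were lost at a minimum score of 100. No RING1B peak lay nearer than 118 kb to a start of Dnmt3b. Both CBX6 replicates had a further peak upstream, outside the span, at chr2:153468520-153470084 (score 103) in replicate 1 and chr2:153468428-153469499 (score 104) in replicate 2, with centres at -5.88 and -6.22 kb from the start.

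Dnmt3a had peaks of CBX7 and RING1B near its first start. The CBX7 peak at chr12:3806535-3809122 scored 353, above 53.9% of its list, and the RING1B peak at chr12:3805997-3808969 scored 174, above 31.9%. CBX6 replicate 1 had 4 peaks in the gene. The one that overlapped the CBX7 and RING1B peaks scored 61.8, and the highest, with a score of 154, lay 83.6 kb into the gene. CBX6 replicate 2 had none.

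The start of Tet3 lay within a CBX6 replicate 1 peak at chr6:83390176-83392474, with a score of 296, above 95.9% of the list. Outside the span, all 4 lists had peaks upstream of that start, with centres between -13.4 and -15.8 kb from it. CBX7 had a peak at chr6:83404381-83407990 (score 562) and RING1B at chr6:83404840-83408137 (score 640). CBX6 replicate 1 had peaks at chr6:83404312-83405920 (score 72.6) and chr6:83406509-83408409 (score 130), and replicate 2 at chr6:83404443-83405813 (score 125) and chr6:83406244-83407819 (score 190). The CBX7 and RING1B scores were the highest of these lists inside any of the 8 genes or within 20 kb upstream of them. The lists had 2 stretches in common, chr6:83404840-83405813 (974 bp) and chr6:83406509-83407819 (1311 bp). The Tet3 upstream sequence printed above is the middle of the longer one, with a number of CpG that 19.7% of promoters reach.

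Tet1, Tet2, Uhrf1 and Dnmt1 had peaks of CBX6 replicate 1 alone in their spans. The highest of 5 at Tet1 covered its start (chr10:62359220-62362078, score 261, above 93.9% of the list). At Tet2 the highest of 5 lay in an intron 10.7 kb after the start (chr3:133195733-133197529, score 324, above 96.9%), and the one closest to the start, at chr3:133207544-133208609, scored 96.3. That peak overlaps the upstream end of the CpG-dense Tet2 sequence. Uhrf1 had 1 peak, which covered 5 annotated starts (chr17:56441989-56444350, score 294, above 95.8%). Dnmt1 had 3 peaks with scores of 93.1, 80.0 and 52.2, none of which remained at a minimum score of 100. Dnmt3l had no peak in its span, and the nearest peak to any of its starts lay at 13.8 kb in CBX6 replicate 1, 205 kb in CBX6 replicate 2, 71.4 kb in CBX7 and 71.3 kb in RING1B.

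**Figure D4:**
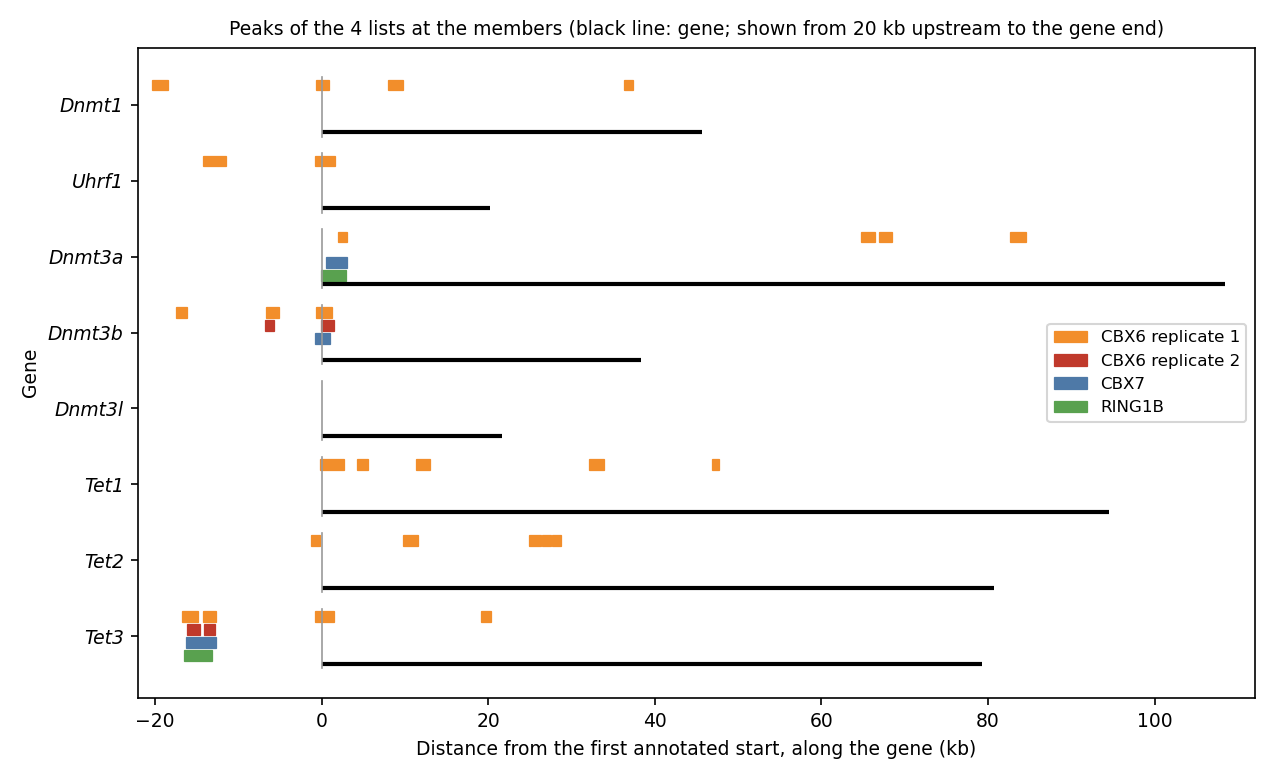
Peaks of the 4 lists around each gene by distance (kb) from its first annotated start, in the direction of transcription. Dnmt3b has peaks of CBX6 replicates 1 and 2 and of CBX7 at its start, Tet3 has peaks of all 4 lists upstream, and Dnmt3l has none in its span.

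The 2 genes with the largest expression differences thus had different peaks. Dnmt3b carried peaks of both CBX6 replicates and of CBX7 at its start, and Tet2 carried peaks of CBX6 replicate 1 alone. Dnmt3a, with the CBX7 and RING1B peaks, overlapped between shCtl and shCbx6. Whether a peak and a difference in expression are connected was not tested.

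Genes that act around the 8 were then read from 7 lists, which hold 75 genes in the table, 67 of them tested. None passed the limma test (0.0949% of all tested genes), and 9 were up and 6 down by 1.5-fold (7.63% and 6.56% of all tested genes). Gadd45g, Taf7l and Slc25a31 are among the 9 and passed the minimum only through shCbx6, where they are high. The median log2 fold change of these lists was -0.03, beside -0.01 over all genes tested. Of the 12 partners of maintenance and targeting (among them Pcna, Hells and Trim28), 4 were higher and 2 lower without overlap (18.9% and 24.4% of all tested genes), with a median of -0.02. Ehmt1, a histone H3 lysine methyltransferase, was read at 18.3 and 19.5 FPKM with shCtl and at 23.6 and 27.1 FPKM with shCbx6, with a log2 fold change of 0.40 (SE 0.142, adjusted p = 0.386 by limma). Zfp57, which keeps methylation at imprinted regions, was read at 273 and 193 FPKM against 176 and 103 FPKM, with a log2 fold change of -0.77 (SE 0.316, adjusted p = 0.439 by limma). Ehmt1 was thus higher and Zfp57 lower in both shCbx6 libraries than in both control libraries.

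Of 17 tested genes of oxidation and base excision, 3 were higher and 6 lower without overlap (18.9% and 24.4% of all tested genes), with a median of -0.13 that was -0.012 without shCtl replicate 1 and 0.035 without shCbx6 replicate 2. Gadd45g, a stress-induced gene linked to demethylation, was read at 0.138 and 0.375 FPKM with shCtl and at 2.81 and 7.74 FPKM with shCbx6, with a log2 fold change of 2.21 (SE 0.411, adjusted p = 0.170 by limma). Its shCtl mean of 0.256 FPKM was under the minimum, so it was tested only through the shCbx6 group, in which it is high. Idh2, which makes the oxoglutarate that TET enzymes use, was read at 75.4 and 97.8 FPKM with shCtl and at 57.8 and 49.5 FPKM with shCbx6, with a log2 fold change of -0.67 (SE 0.188, adjusted p = 0.289 by limma). The groups did not overlap for either gene. The list of readers of methylated CpG and their relatives had 7 tested genes. Without overlap, 2 were higher (Mbd1 and Mbd3) and 0 lower (18.9% and 24.4% of all tested genes), with a median of 0.08 over the 7. That median had no stable sign, with -0.069 without shCbx6 replicate 2, -0.033 without shCtl replicate 1, -0.036 without shCtl replicate 2 and -0.0056 with no filter on low FPKM. Mbd1, a reader that represses transcription, was read at 3.65 and 3.93 FPKM against 4.92 and 6.22 FPKM, with a log2 fold change of 0.45 (SE 0.164, adjusted p = 0.394 by limma).

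In the methyl donor cycle, which supplies S-adenosylmethionine, 1 of 9 tested genes was higher and 6 were lower without overlap (18.9% and 24.4% of all tested genes), with a median of -0.27. Shmt2, the mitochondrial serine hydroxymethyltransferase, was read at 172 and 174 FPKM with shCtl and at 108 and 110 FPKM with shCbx6, with a log2 fold change of -0.66 (SE 0.141, adjusted p = 0.199 by limma). The spread within its groups was small against the gap between them. Ahcy, which removes the product of methyl transfer, was read at 185 and 212 FPKM against 221 and 245 FPKM, with a log2 fold change of 0.23 (SE 0.165, adjusted p = 0.661 by limma).

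Of the 9 regulators of methylation in ESCs, 2 were higher and 5 lower without overlap (18.9% and 24.4% of all tested genes), with a median of -0.32. Dppa3, which keeps UHRF1 from chromatin and shields the maternal genome from demethylation in the zygote, was read at 2.36 and 2.19 FPKM with shCtl and at 27.0 and 57.1 FPKM with shCbx6. Its log2 fold change was 3.62 (SE 0.349, adjusted p = 0.0732 by limma), the largest of any listed gene and still short of the threshold. Dppa3 has near-identical processed copies in the genome, so its value is uncertain where reads could be assigned to a copy. Prdm14, which represses the de novo methyltransferases in naive ESCs, was read at 12.3 and 11.0 FPKM with shCtl and at 8.01 and 3.01 FPKM with shCbx6, with a log2 fold change of -1.07 (SE 0.384, adjusted p = 0.389 by limma). Nanog, Esrrb and Zfp42 of this list are also among the ESC markers whose sum was lower with shCbx6.

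Germline genes whose promoters are silenced by methylation in somatic cells numbered 12 tested, of which 4 were higher and 0 lower without overlap (18.9% and 24.4% of all tested genes), with a median of 0.29. That median was 0.082 without shCbx6 replicate 2, 0.46 without shCbx6 replicate 1 and 0.52 with a mean of at least 5 FPKM. Taf7l, 1 of the 4, and Slc25a31 were tested only because their shCbx6 means passed 1 FPKM, so the filter favoured higher values for them. Tex19.1, a germ cell gene also expressed in ESCs, was read at 25.1 and 28.0 FPKM with shCtl and at 41.2 and 82.4 FPKM with shCbx6, with a log2 fold change of 1.11 (SE 0.332, adjusted p = 0.313 by limma). Trdmt1, which has the fold of a DNA methyltransferase and methylates transfer RNA, overlapped between the groups with a log2 fold change of -0.02. The sum of the trophectoderm markers was higher in the same libraries, and the part of these markers in the values of these lists was not tested.

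**Figure D5:**
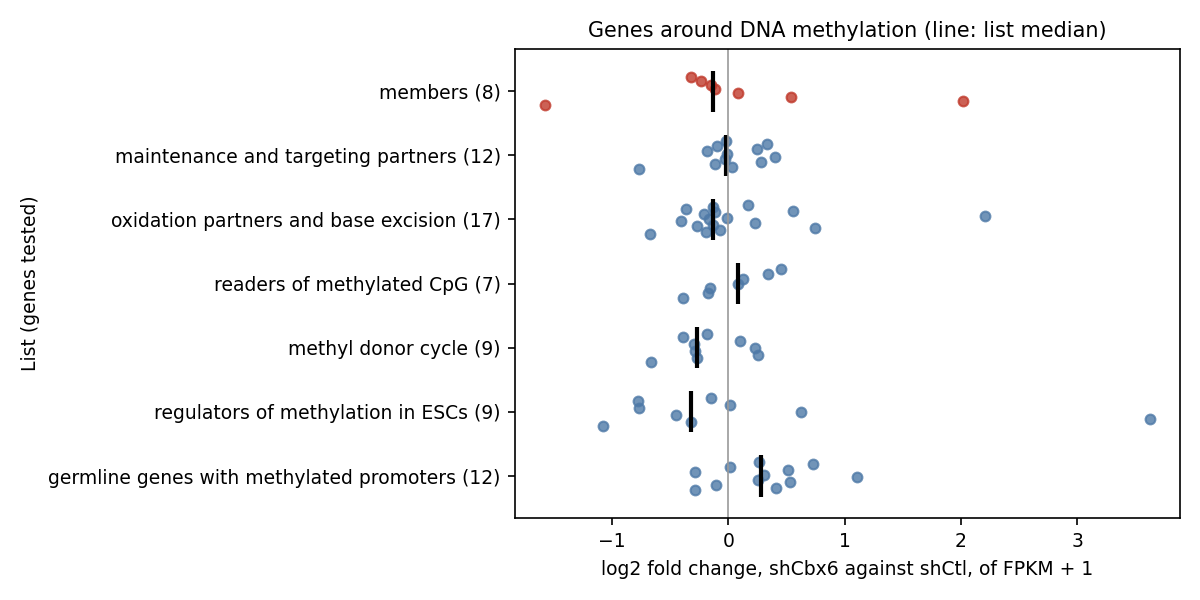
Log2 fold change, shCbx6 over shCtl on the log2(FPKM + 1) scale, of each tested gene of the lists, a point per gene and a bar at each list's median. Medians run from -0.32 (regulators of methylation in ESCs) to 0.29 (germline genes), and Dppa3 at 3.62 and Gadd45g at 2.21, which was tested only through shCbx6, lie farthest from 0.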

How the data were processed

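The 8 genes, the gene lists and the tests were chosen with earlier results of these data known. The expression table holds FPKM, which the authors made with TopHat and Cufflinks from paired-end reads on mm9 and RefSeq transcripts. How transcripts of a symbol were combined is not given in the sources used here. The peak lists hold a MACS score per peak, as the authors deposited it, from reads mapping once with Bowtie on mm9 and a shift size of 75 bp, with 1 call per sample. The study names parental ESCs as the control of its anti-HA ChIP-seq. The control sample entered in each peak call is not given in the sources used here. Of 11 samples, 4 RNA and 4 ChIP samples were used. FPKM carry no read counts and lists no depth, so no count model or interval was used, and low values are less precise.

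From the 23290 entries of the table (2 repeated symbols dropped), those averaging 1 FPKM or more in shCtl or shCbx6 were kept (11592), and log2(FPKM + 1) was fitted with limma 3.58.1 (R 4.3.3, lmFit and eBayes with a trend, two-sided, Benjamini-Hochberg over all genes tested). A fold change on this scale understates the change of low genes. The fold is the ratio of mean FPKM, with the 1.5-fold threshold of the study and no test. Peaks were assigned with an overlap of at least 1 bp to the span from 2.5 kb upstream of any GENCODE start (mm9) to the gene end, for 21951 symbols with coordinates (21149 by name, 802 by synonym). Sequences came from the mm9 genome, and promoter CpG counts from RefSeq (GRCm38.p6). Python 3.11.15, numpy 2.4.6, pandas 2.3.3 and matplotlib 3.10.9 were used.

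Named are the 8 genes, Cbx6, on each list the gene with the largest positive and the largest negative log2 fold change without overlap between groups, and for each of the 8 genes the nearest gene in pattern, of which 1 is not reported here. For the 8 genes the highest peak of each list is named, and peaks outside the span were added after their positions were seen, as were the other genes named as examples of a list. Alternatives covered the filter, pseudocount, scaling, each library left out, replicate block, peak score and span.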

Additional observations from a re-analysis of the deposited data

How the results depend on the processing

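The number of genes called by limma, 5 higher and 6 lower in shCbx6, rests on 2 libraries per group and varied with the settings. It was 11 higher with a pseudocount of 0.1 FPKM, 20 lower with no filter on low FPKM, and between 5 and 267 higher and between 8 and 131 lower as each library was left out, the most without shCbx6 replicate 1. Past 1.5-fold were 885 genes up and 761 down, which became 3739 and 2357 with no filter, 411 and 386 with a mean of at least 5 FPKM, 589 and 494 by geometric means, and 632 to 1414 and 850 to 1179 as each library was left out. The log2 fold changes of the 8 genes kept their sign in every setting in which they were tested, except that Dnmt3a was -0.066 without shCbx6 replicate 2, with a range of -0.066 to 0.24 over the libraries left out. Over the same settings Dnmt3b ranged from 1.49 to 2.55, Tet2 from -2.06 to -1.08 and Cbx6 from -1.42 to -0.70, and each passed the limma test without shCbx6 replicate 1. With the replicate number as a block, 183 genes were called higher and 205 lower, and Dnmt3b (2.02, adjusted p = 0.0357 by limma), Tet2 (-1.57, adjusted p = 0.0142) and Cbx6 (-1.06, adjusted p = 0.0425) passed. The labels do not state that equal numbers share a culture or a day, and the deviations of the 2 pairs from their group means correlated at 0.266 over 11592 genes. The median of the maintenance list, -0.02, was -0.053 after quantile normalization and ran from -0.11 to 0.11 as each library was left out. Over the libraries left out, the median ran from -0.19 to 0.035 for oxidation and base excision, from -0.069 to 0.11 for readers, from -0.32 to -0.19 for the methyl donor cycle, from -0.34 to -0.31 for regulators and from 0.082 to 0.46 for germline genes. Tet3 was not tested with a mean of at least 5 FPKM or without shCtl replicate 1, where it was under the minimum. At a peak score of at least 100, 6 of the 8 genes had a peak of CBX6 replicate 1 in their span. The number was 0 for CBX6 replicate 2, 1 for CBX7 and 1 for RING1B. The share of all tested genes at that score was not computed. Peaks outside the span are not counted here, among them those of CBX6 replicate 2 upstream of Tet3 (scores 125 and 190).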
